A study of Homo sapiens with 4 samples.

Results

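The human reference genome GRCh38 holds, beside its chromosomes, sequences that could not be given a position. Unlocalised sequences are known to belong to a chromosome, their home chromosome, and unplaced sequences are not assigned to any. A peak was counted here when its sequence name began with chrUn_ (unplaced) or ended in _random (unlocalised). Of the 56167 peaks listed for OMM2.3, 435 lay on such sequences, 224 of them on unlocalised and 211 on unplaced sequences. Of the 136678 peaks listed for 92.1, 560 did, 287 on unlocalised and 273 on unplaced sequences. Together they were 995 of 192845 peaks.

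The peaks came from chromatin immunoprecipitation followed by sequencing (ChIP-seq) in OMM2.3 and 92.1, both uveal melanoma cell lines. Each line gave 1 library made with an antibody against A3B (APOBEC3B) and 1 made with normal rabbit IgG, and the labels name no treatment or gene change for any of the 4 samples. A3B is a cytidine deaminase that turns cytosine into uracil in single-stranded DNA, and the libraries were made to map where it is bound on the genome. With 1 library in each group there was no replicate check, so no test was made between the lines or between classes of peaks. The intervals given below are 95% Wilson intervals for shares and 95% Poisson intervals for densities, and they cover counting error only.

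Unplaced and unlocalised sequences are rich in satellite DNA, which consists of short units repeated in tandem over long stretches. Human satellites 2 and 3 are built around the pentamer GGAAT, human satellite 1 is an AT-rich array of short units, beta satellite has units of 68 bp, and alpha satellite, found at centromeres, has longer units. Some of these sequences also carry copies of the ribosomal DNA, whose 45S units are transcribed into the large ribosomal RNAs and are separated by spacers. In such DNA a read can match many places, so the place it is given is uncertain.

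The sequences at the summits of some strong peaks showed members of these families. Many peaks fell in none of the classes called below by GGAAT, by period or by a low GC content. In OMM2.3 these were 311 of 435 peaks, and 12 of the 17 that passed a q of 0.05. In 92.1 they were 380 of 560 peaks, and 2 of the 21 that passed. The windows below span 100 bases on either side of the summit and are read on the plus strand of GRCh38. Each of the first windows held at least 5 matches to GGAAT or its complement ATTCC, shown in capitals. They are shown because 9 of the 21 peaks of 92.1 that passed a q of 0.05 were of this kind.
92.1 chrUn_KI270438v1:103976-104176: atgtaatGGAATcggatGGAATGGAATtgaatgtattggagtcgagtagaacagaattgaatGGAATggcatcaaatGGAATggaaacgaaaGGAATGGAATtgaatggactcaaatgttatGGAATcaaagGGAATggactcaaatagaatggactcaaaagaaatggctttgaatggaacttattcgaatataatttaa
92.1 chr1_KI270709v1_random:15022-15222: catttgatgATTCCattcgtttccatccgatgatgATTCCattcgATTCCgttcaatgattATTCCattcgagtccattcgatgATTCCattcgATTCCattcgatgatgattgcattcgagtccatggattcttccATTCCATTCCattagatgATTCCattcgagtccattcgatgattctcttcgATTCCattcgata
OMM2.3 chrUn_GL000216v2:209-409: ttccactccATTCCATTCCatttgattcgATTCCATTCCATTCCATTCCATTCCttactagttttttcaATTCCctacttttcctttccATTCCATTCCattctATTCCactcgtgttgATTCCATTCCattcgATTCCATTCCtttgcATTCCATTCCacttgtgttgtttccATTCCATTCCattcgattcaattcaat
The window on chrUn_KI270438v1 held 9 matches, that on chr1_KI270709v1_random 10, and that on chrUn_GL000216v2 19. The next window belongs to an AT-rich sequence on which 92.1 had strong peaks. Here and in the windows that follow, capitals mark bases covered by a run of 32 bases (a 32-mer) that occurs at 1 place in the genome, so lower case marks repeated sequence.
92.1 chrUn_KI270333v1:987-1187: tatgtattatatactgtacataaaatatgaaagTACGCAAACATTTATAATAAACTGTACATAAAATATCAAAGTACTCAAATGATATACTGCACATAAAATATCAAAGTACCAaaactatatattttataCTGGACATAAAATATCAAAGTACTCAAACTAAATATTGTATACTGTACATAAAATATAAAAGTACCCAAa
Its GC content was 21.9%, and in the 1 kb around its summit 70.8% of bases equalled the base 42 positions away. A pair of windows of related sequence, one from each line, completes the set.
OMM2.3 chr14_GL000225v1_random:134864-135064: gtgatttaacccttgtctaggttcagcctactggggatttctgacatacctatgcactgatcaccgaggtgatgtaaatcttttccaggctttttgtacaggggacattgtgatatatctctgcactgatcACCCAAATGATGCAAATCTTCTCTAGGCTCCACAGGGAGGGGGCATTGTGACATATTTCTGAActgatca
92.1 chrUn_GL000216v2:149509-149709: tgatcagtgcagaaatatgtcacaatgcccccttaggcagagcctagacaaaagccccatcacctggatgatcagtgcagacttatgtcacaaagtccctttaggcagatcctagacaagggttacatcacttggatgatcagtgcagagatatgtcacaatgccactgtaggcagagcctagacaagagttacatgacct
The latter, from chrUn_GL000216v2, had no capital because all its 32-mers were repeated. It shared a run of 24 bases, on the opposite strand, with the window on chr14_GL000225v1_random. Among shifts of 3 to 200 bases, the one at which most bases of the surrounding 1 kb equalled each other was 68 bases (51.4% of bases) for the window on chrUn_GL000216v2 and 69 bases (37.1%) for the other.

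The first comparison was of how many peaks these sequences carried for their length. The reference holds 169 of them, 127 unplaced and 42 unlocalised, with 10.97 Mb outside runs of N. Peaks in OMM2.3 fell on 72 of the 169 and peaks in 92.1 on 91, and 65 had peaks in both lists. The density in OMM2.3 was 39.6 peaks per Mb (95% interval 36.01 to 43.6) against 18.9 (18.7 to 19.0) on chromosomes 1 to 22, X and Y, a ratio of 2.10. In 92.1 it was 51.0 per Mb (46.9 to 55.4) against 46.1 (45.8 to 46.3), a ratio of 1.11.

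Unplaced sequences were denser than unlocalised ones in both lists. OMM2.3 had 48.7 peaks per Mb (42.4 to 55.8) on unplaced and 33.7 (29.4 to 38.4) on unlocalised sequences. In 92.1 the values were 63.1 (55.8 to 71.0) and 43.2 (38.3 to 48.5), so the unlocalised sequences of 92.1 did not lie above the chromosomes. The 92.1 list was longer on the chromosomes by 2.44 times but longer on unplaced and unlocalised sequences by only 1.29 times.

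Next, the peaks were compared by how far they stood out from IgG. The deposited q-value corrects the p-value of a peak for the number of positions tested along the genome. In OMM2.3, 17 of 435 peaks passed a q of 0.05 (3.91%, 2.45 to 6.17), against 0.449% of all listed peaks. In 92.1, 21 of 560 passed (3.75%, 2.47 to 5.66), against 0.166% of all listed peaks. With the p-value held to 1e-05 or less, 29 (6.67%, against 0.871% of the list) and 35 (6.25%, against 0.875%) remained. The share past q was 3.79% on unplaced and 4.02% on unlocalised sequences in OMM2.3, with overlapping intervals, and 5.49% (3.36 to 8.87) and 2.09% (0.962 to 4.49) in 92.1. The weakest peak past the threshold had a −log10 q of 1.36 in OMM2.3 and 1.44 in 92.1, and the next below it had 1.23 and 1.19.

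The A3B fragments stacked at each summit, and the IgG background they were set against, were worked back from the fold enrichment and p-value of the peak. Fragment numbers are given as counted, while fold enrichment and background are on the scale MACS2 used to equalise depth, which multiplied A3B fragments by 0.867 in OMM2.3 and IgG fragments by 0.809 in 92.1. Both were higher here than on the chromosomes. The median peak rested on 9 A3B fragments in OMM2.3, against 6 on the chromosomes, and on 5 in 92.1, against 4. The median background was 2.48 against 1.12 in OMM2.3 and 1.62 against 0.921 in 92.1. The chromosome medians lay close to a floor of 1.05 in OMM2.3 and 0.877 in 92.1. This was the lowest background recovered, before the choice between several possible fragment numbers. On chr16_KI270728v1_random the median was at the floor in both lists. A background at the floor is not a count of IgG fragments at that summit. The median fold enrichment was lower than on the chromosomes, 2.45 against 2.60 in OMM2.3 and 2.45 against 2.66 in 92.1.

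The upper ends differed more than the medians. Peaks of 8 or more A3B fragments made up 65.1% (60.5 to 69.4) in OMM2.3 against 11.3% on the chromosomes, and 23.8% (20.4 to 27.4) against 1.14% in 92.1. A background of 5 or more was found at 94 peaks of OMM2.3 (21.6%, 18.0 to 25.7) against 1.07% on the chromosomes, and at 34 peaks of 92.1 (6.07%, 4.38 to 8.36) against 0.128%.

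**Figure D1:**
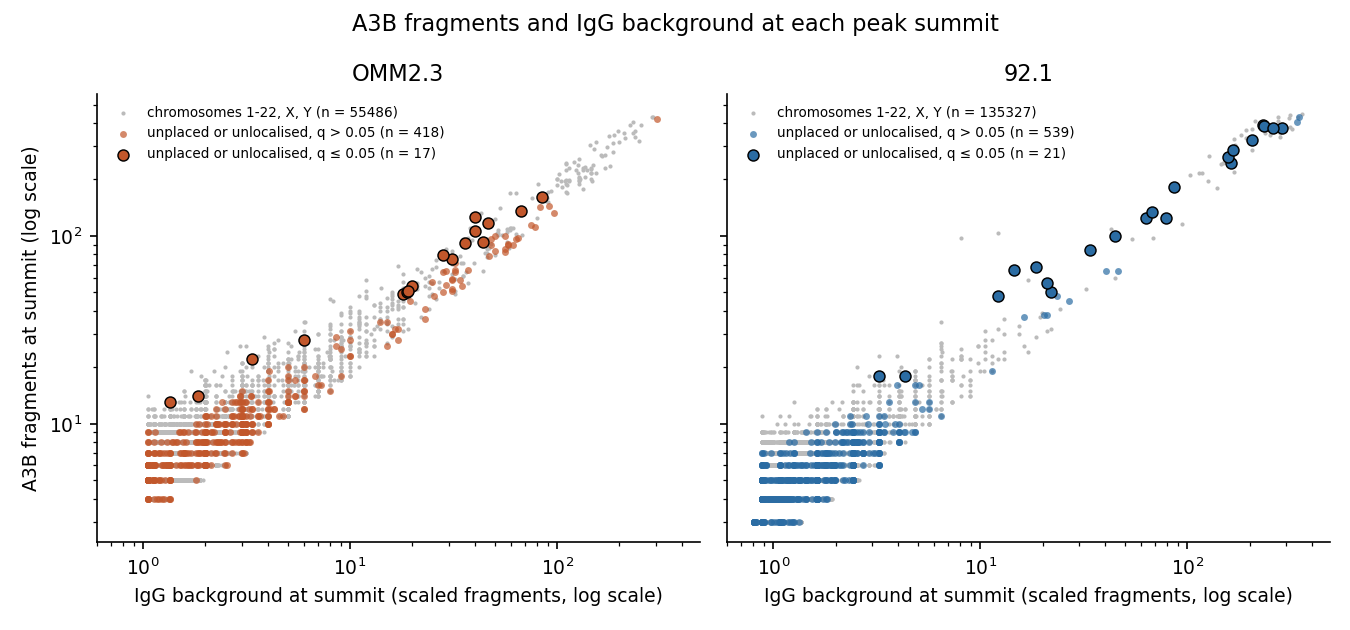
A3B fragments (vertical, log scale) against IgG background in scaled fragments (horizontal, log scale) at the summit of every peak, for OMM2.3 (left) and 92.1 (right). Grey points are peaks on chromosomes 1 to 22, X and Y, coloured points are peaks on unplaced or unlocalised sequences, and outlined points are the 17 and 21 of these that passed a q of 0.05, most of which lie at a background of 5 or more.

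Most peaks past q lay where IgG was also high. In OMM2.3, 14 of the 17 had a background of 5 or more, and in 92.1, 19 of the 21 did. Among peaks with such a background, the share past q was 14.9% (9.08 to 23.5) on these sequences and 21.5% (18.4 to 25.0) on the chromosomes in OMM2.3, with overlapping intervals. In 92.1 it was 55.9% (39.5 to 71.1) and 28.9% (22.7 to 36.1). This class did not match the background, whose median in it was 19.8 here against 9 on the chromosomes in OMM2.3, and 37.2 against 8.90 in 92.1. Below that background, 3 of 341 peaks (0.880%, 0.300 to 2.55) passed in OMM2.3, against 0.195% on the chromosomes, and 2 of 526 (0.380%, 0.104 to 1.38) in 92.1, against 0.115%. The fold enrichment of the peaks past q had a median of 2.27 in OMM2.3 and 1.98 in 92.1, against 3.55 and 4.73 on the chromosomes. In 92.1, 11 of the 21 had a fold below 2.

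Of the 4 peaks of OMM2.3 that followed its strongest by p, 2 lay on chr22_KI270733v1_random, a sequence with ribosomal DNA. They had 117 and 79 A3B fragments. A further one lay on chr14_GL000225v1_random at 134806-135069, with a −log10 p of 11.8 and 106 A3B fragments against 40 of IgG. Another, at 192-797 of chrUn_GL000216v2, had 92 against 36 and lay in GGAAT repeats, of which the window printed above shows the first part.

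In 92.1 the strongest peak was on chrUn_KI270466v1, a sequence of 1233 bases. It lay at 912-1174 with a −log10 p of 22.8, 66 A3B fragments against 18 of IgG and a fold of 4.30, and its window had a GC content of 24.4%. A further 2 of the 5 strongest were on chrUn_KI270438v1, at 103934-104297 and 104750-105045, with −log10 p of 21.3 and 18.8. They held 391 and 384 A3B fragments against 286 and 290 IgG fragments, which gave folds of only 1.69 and 1.63. Another lay on chr1_KI270709v1_random at 15017-15250, with 182 against 107 fragments, and all its 32-mers also occurred on chromosome 1. The last was on chrUn_KI270336v1 at 64-364, with 68 against 23 fragments and a fold of 3.52. None of these 5 overlapped a peak of OMM2.3, as was the case for most, since only 22 of the 560 (3.93%) did.

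Peaks past q lay on 11 sequences in each list. Of the 169 sequences, 90 were shorter than 10 kb and together held 0.230 Mb. In 92.1 these short sequences carried 33 peaks, 9 of them past q, a density of 144 per Mb against 49.1 on the longer ones. In OMM2.3 they carried 10 peaks, none past q, a density of 43.5 against 39.6.

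The 9 short-sequence peaks past q in 92.1 lay on 5 sequences, chrUn_KI270466v1, chrUn_KI270467v1, chrUn_KI270336v1, chrUn_KI270337v1 and chrUn_KI270333v1. These were the 5 of the 169 sequences whose overall GC content was under 30%, at 22.5% to 25.5%. They were 1026 to 3920 bases long and summed to 9999 bases. In 92.1 they carried 11 peaks of 37 to 134 A3B fragments and folds of 1.58 to 4.30, which covered 48.9% of their bases. In OMM2.3 they carried no peak, but only 10 of the 90 sequences under 10 kb carried any peak of OMM2.3.

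The same family could be looked for on the chromosomes by its 42-base period, a threshold set after the values were seen. Among peaks with a GC content under 30%, 11 of 75 on unplaced and unlocalised sequences in 92.1 had at least 60% of bases equal at a shift of 42, and they were the 11 just described. On the chromosomes in 92.1, 4 of 10783 did, 3 of which passed q. In OMM2.3 none of 10 and none of 1241 did. Human satellite 1 is known for AT-rich units of this length. Low-GC peaks as a whole also differed between the lists, at 7.97% of chromosome peaks in 92.1 and 2.24% in OMM2.3, and the part this played in the absence of peaks in OMM2.3 was not tested.

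Windows with 5 or more GGAAT matches, the pentamer of satellites 2 and 3, were found at 76 peaks of OMM2.3 (17.5%, 14.2 to 21.3) against 0.452% on the chromosomes. In 92.1 there were 48 (8.57%, 6.53 to 11.2) against 0.120%. In OMM2.3 they lay on 16 sequences, 17 of them on chrUn_GL000216v2, and 3 passed q. In 92.1 they lay on 13 sequences, 10 of them on chr17_KI270729v1_random, and 9 passed q. Their median A3B fragment number was 9 in OMM2.3 and 6.5 in 92.1, near that of all peaks on these sequences, but their highest were 418 and 431.

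Those highest values had a like number of IgG fragments beneath them. On chr1_KI270709v1_random, the peak of OMM2.3 at 7295-7536 had 418 A3B and 304 IgG fragments, a fold of 1.19, and did not pass q. The peak of 92.1 at 7306-7625 of the same sequence had 322 and 255, a fold of 1.56, and passed. In 92.1, 6 of the 10 peaks on chrUn_KI270438v1 lay between 103934 and 112369, near the end of its 112505 bases, with 376 to 431 A3B fragments and 286 to 426 IgG fragments. The 6 peaks of OMM2.3 on that sequence lay at 78272 to 96181, all in GGAAT repeats, and had 6 to 13 A3B fragments.

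Peaks with the period of alpha satellite were 32 in OMM2.3 (7.36%, 5.26 to 10.2) against 1.92% on the chromosomes, and 56 in 92.1 (10.0%, 7.78 to 12.8) against 0.959%. The period was called where at least 50% of bases in 1 kb equalled the base 1 unit length away. None of these peaks passed q in either list, which at 3 counts allows a share of up to 9.38% and 5.36%. On the chromosomes 81 of 1065 and 24 of 1298 such peaks passed. In each list 3 of the peaks on unplaced and unlocalised sequences had a p of 1e-05 or less. The alpha-satellite class of 92.1 was concentrated on unplaced sequences, with 49 of the 56 peaks. The CENP-B box, a motif of alpha satellite that binds the centromere protein CENP-B, was matched at 1 peak of OMM2.3 (0.230%, against 1.10% on the chromosomes) and 9 of 92.1 (1.61%, against 0.511%). No window held a tandem of 2 TTAGGG telomere units, which at 3 counts allows a share of up to 0.690% and 0.536%.

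The 68-base period of beta satellite, called at 45% of bases, was rarer. It was found at 7 peaks of OMM2.3 (1.61%, 0.782 to 3.28, against 0.0739% on the chromosomes). In 92.1 it was found at 1 (0.179%, 0.0315 to 1.00, against 0.0296%). Of the 7, 2 passed q, and their median A3B fragment number was 50. The peak of 92.1 was the one on chrUn_GL000216v2 at 149464-149702, with 287 A3B fragments against 206 of IgG. On chr14_GL000225v1_random, OMM2.3 had 14 peaks of 8 to 106 A3B fragments, 3 of them past q. Only 3 of the 14 were in this class, which had at most 72 A3B fragments in OMM2.3. The peak of 106 fell short of it, with 36.2% of bases equal at a shift of 68. On that sequence 92.1 had 2 peaks, neither of them in this class. The stronger, at 131624-131863, had 124 A3B against 78 IgG fragments and 43.2% of bases equal at that shift.

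A GC content under 30% was found at 10 peaks of OMM2.3 (2.299%, 1.25 to 4.18) and 75 of 92.1 (13.4%, 10.8 to 16.5). The mean GC content was 44.96% ± 0.458 (SE over 435 peaks) in OMM2.3, against 46.2% on the chromosomes. In 92.1 it was 39.6% ± 0.388 (SE over 560 peaks), against 42.3%. The TC dinucleotide, the context in which A3B is known to deaminate, was counted with its complement GA. It made up 13.8 per 100 dinucleotides in OMM2.3, against 12.4 on the chromosomes, and 12.8 against 12.1 in 92.1. GGAAT itself contains GA, and the values were matched neither for GGAAT windows nor for GC content, so they show no preference for this context.

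**Figure D2:**
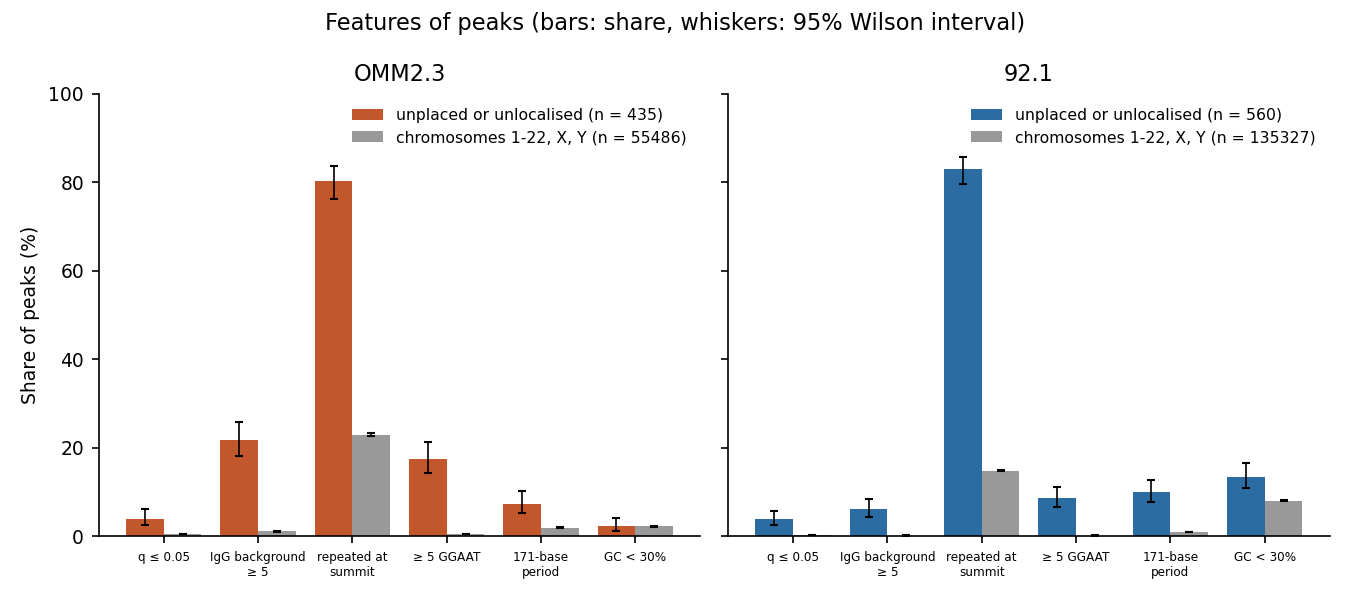
Share of peaks (%, vertical) with each feature on unplaced or unlocalised sequences (coloured) and on chromosomes 1 to 22, X and Y (grey), with 95% Wilson intervals as whiskers, for OMM2.3 (left) and 92.1 (right). Repeated sequence at the summit is the feature of most peaks, at 80.2% and 82.9%, and the GGAAT share in OMM2.3 is 17.5%.

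Repeated sequence in general was the rule. At least 50% of the 32-mers around the summit occurred more than once in the genome at 349 peaks of OMM2.3 (80.2%, 76.2 to 83.7) against 22.9% on the chromosomes. In 92.1 this held for 464 peaks (82.9%, 79.5 to 85.8) against 14.8%. All the 32-mers were repeated at 178 and 231 peaks. Every one of the 995 windows held at least 1 repeated 32-mer. The share past q was 4.01% for repeated and 3.49% for other peaks in OMM2.3, and 3.23% and 6.25% in 92.1, with overlapping intervals in both.

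The copies lay mostly on the chromosomes. At least 50% of the 32-mers were also on a chromosome for 301 peaks of OMM2.3 (69.2%) and 410 of 92.1 (73.2%). For 213 (49.0%) and 269 (48.0%) they were on another unplaced or unlocalised sequence, and for 59 (13.6%) and 40 (7.14%) elsewhere on the same sequence. The chromosome with the largest share of a window's 32-mers was 21 for 99 peaks of OMM2.3 and 150 of 92.1, and 22 for 73 and 79. Where chromosomes tied, the first by name was taken, so a tie between 21 and 22 went to 21. For unlocalised peaks the home chromosome held copies in 90 of 224 cases (40.2%) in OMM2.3 and 115 of 287 (40.1%) in 92.1. A further 79 and 118 had copies on chromosomes but not on their own.

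The ribosomal DNA was found by matching the 45S gene to these sequences. chrUn_GL000220v1 carried 45S units at 105424-118780 and 149396-161802, and chr22_KI270733v1_random carried them at 122273-135645 and 167355-179772, the latter unit of each reaching the end of the sequence. No peak of either line overlapped a 45S unit. The units spanned 25764 bases of chrUn_GL000220v1 and 25791 of chr22_KI270733v1_random. The average densities over all unplaced and unlocalised sequences, 39.6 and 51.0 per Mb, would place few peaks there. In OMM2.3 the spacers, of 30615 bases on the former and 31709 on the latter, held 7 and 4 peaks, a higher density than that average. In OMM2.3, 15 of the 19 peaks on this pair of sequences lay beside the units, 11 in the spacer between them and 4 in the 5 kb before the first. In 92.1, none of 9 did.

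The 15 peaks of OMM2.3 beside the units had 54 to 162 A3B fragments on an IgG background of 28 to 91, and folds of 1.23 to 2.40. On chr22_KI270733v1_random 3 of them passed q. In the spacer there were 117 A3B fragments on a background of 46.4 at 138220-138497 and 162 on 85 IgG fragments at 139196-139436, and before the first unit there were 79 on 28 at 118995-119271. On chrUn_GL000220v1 none passed, the highest being 145 A3B on 91 IgG fragments at 119854-120114. The other 4 peaks of OMM2.3 had at most 10 A3B fragments, and the 9 of 92.1 had 4 to 7.

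**Figure D3:**
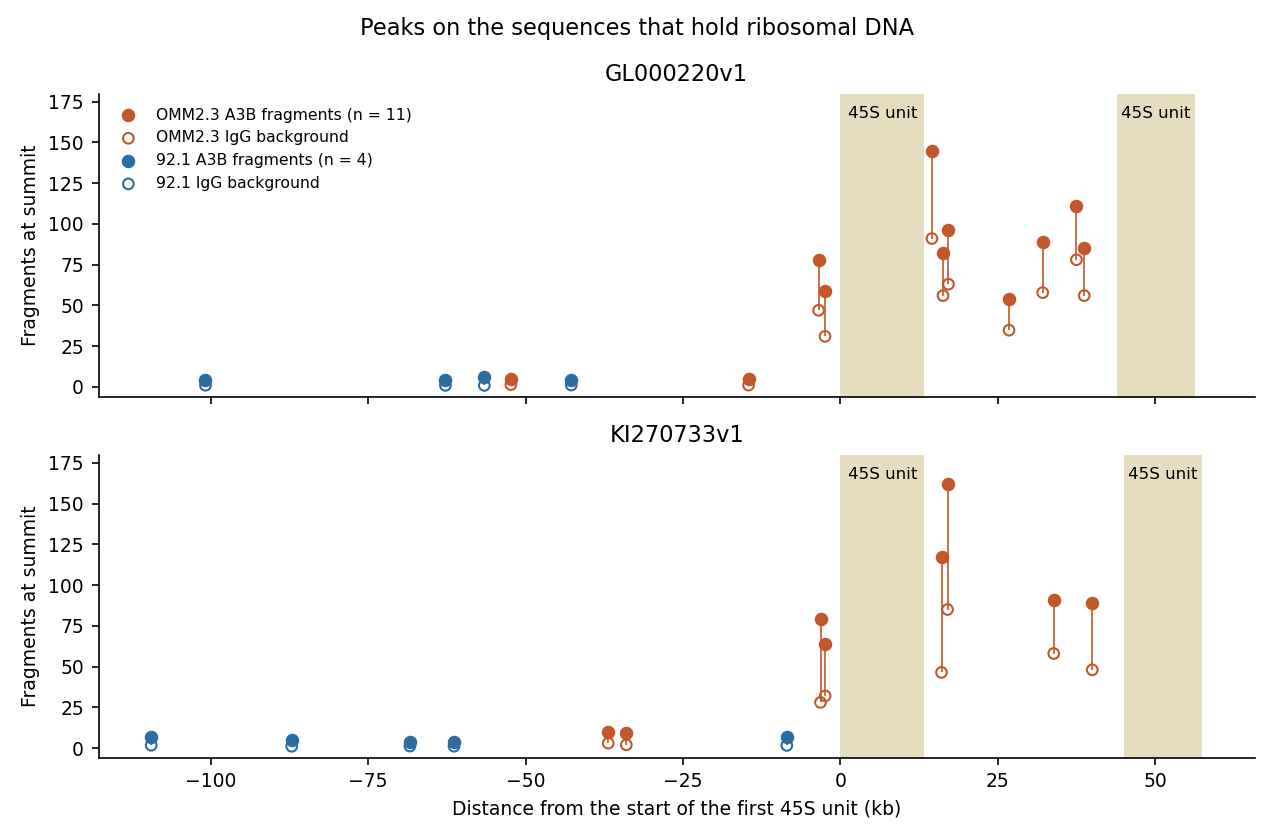
A3B fragments (filled) and IgG background (open) at the summit of each peak (vertical) by distance in kb from the start of the first 45S unit (horizontal), on GL000220v1 (top) and KI270733v1 (bottom). Shaded bands are the 45S units, which hold no peak, and the tall pairs beside them are the 15 peaks of OMM2.3 with 54 to 162 A3B fragments.

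By sequence, chrUn_KI270442v1 had the most peaks in both lists, 30 in OMM2.3 and 26 in 92.1, and none passed q. Its densities were 80.9 and 70.1 per Mb, its peaks had up to 26 and 11 A3B fragments, and 13 and 6 of them lay in GGAAT repeats. The longest sequence, chr16_KI270728v1_random with 1872759 bases, had 23 and 21 peaks but only 14.6 and 13.4 per Mb. All its peaks were at repeated sequence, and for all of them at least 50% of the 32-mers also stood on chromosome 16.

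Of the other sequences with many peaks, some carried near-equal numbers in both lists, as chr3_GL000221v1_random with 11 and 11, and some did not. chrUn_GL000216v2 had 24 peaks in OMM2.3 and 9 in 92.1. chr17_GL000205v2_random had 10 and 20, chr1_KI270712v1_random 6 and 21, and chrUn_GL000195v1 7 and 18. The widest gaps toward OMM2.3, beside chrUn_GL000216v2, were at chr14_GL000225v1_random with 14 and 2 and chr22_KI270731v1_random with 12 and 2. A further gap toward 92.1 was at chrUn_KI270519v1, with 1 and 11, where the peaks of 92.1 had a median of 5 A3B fragments.

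**Figure D4:**
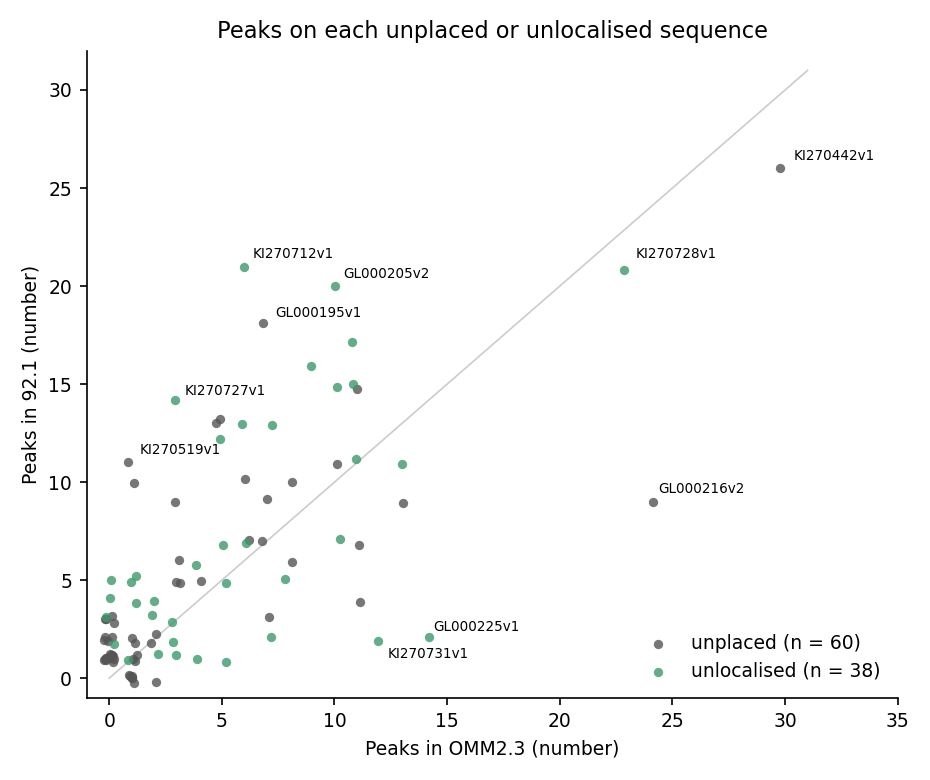
Number of peaks in OMM2.3 (horizontal) and in 92.1 (vertical) for each of the 98 sequences with a peak in either list, with the line of equal numbers in grey and a small jitter added to separate points. Unplaced sequences are grey and unlocalised ones green, and KI270442v1 stands at the top right with 30 and 26.

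The unlocalised sequences were then set beside their home chromosomes, of which 12 were compared, with 41 sequences. In each list the unlocalised sequences were denser than their chromosome for 7 of the 12. In OMM2.3 the ratio was highest for chromosome 4, at 62.0 per Mb (33.0 to 106) against 13.6, and the interval also lay above the chromosome for 3, 9, 14 and 17. In 92.1 it lay above for chromosome 1, at 96.97 per Mb (75.9 to 122) against 53.0, for chromosome 3 at 70.8 (35.3 to 127) against 35.1, and for chromosome 17 at 74.8 (53.9 to 101) against 48.4. It lay below for chromosomes 2, 16 and 22, where chromosome 16 had 13.4 (8.27 to 20.4) against 53.2. For chromosome 22, OMM2.3 had 46.0 per Mb on the unlocalised sequences and 46.4 on the chromosome, whereas 92.1 had 30.4 and 59.0.

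**Figure D5:**
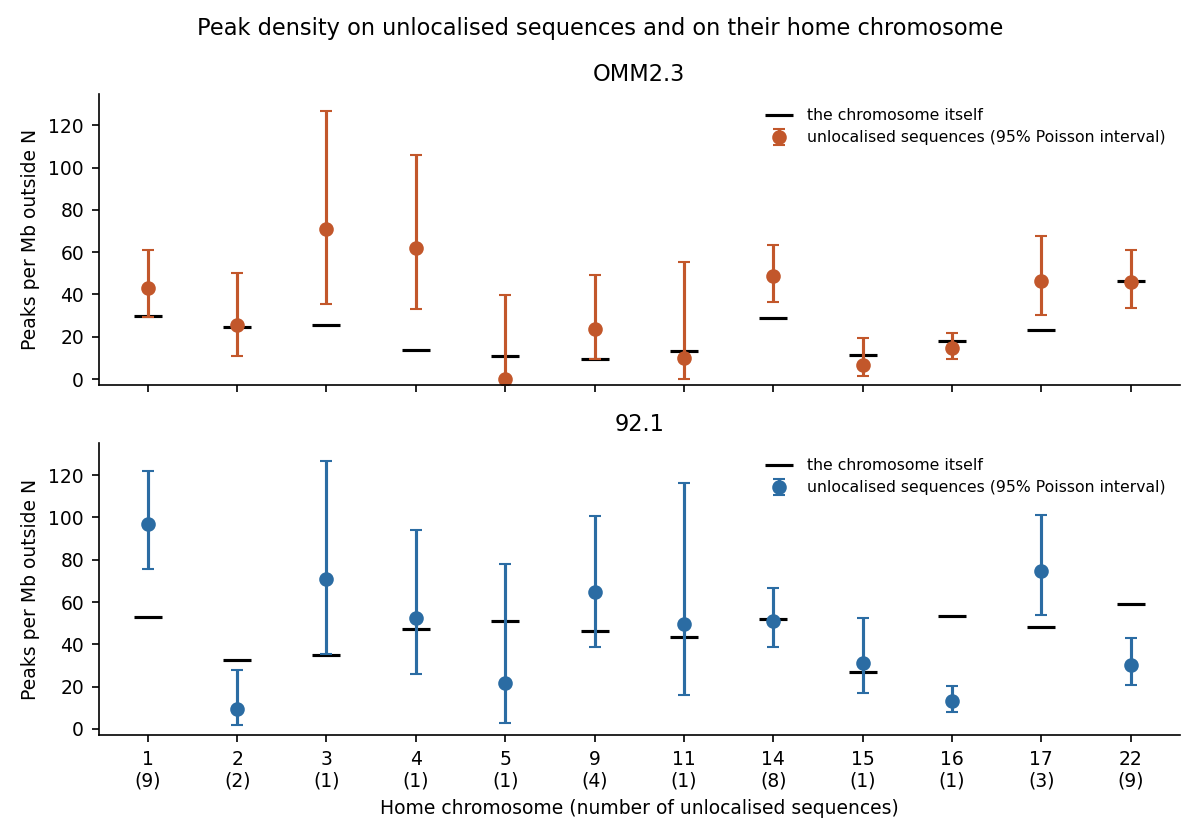
Peaks per Mb outside N (vertical) on the unlocalised sequences of each home chromosome (points, with 95% Poisson intervals) and on that chromosome (black bars), for OMM2.3 (top) and 92.1 (bottom). The number of unlocalised sequences stands in brackets, and in 92.1 those of chromosome 1 lie above their chromosome, with 96.97 against 53.0, and that of chromosome 16 below, with 13.4 against 53.2.

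Finally, the lines were compared position by position. On these sequences, 22 peaks of each list overlapped a peak of the other by at least 1 bp. This was 5.06% (3.36 to 7.54) of OMM2.3 peaks, against 3.62% (3.47 to 3.78) on the chromosomes, and 3.93% (2.61 to 5.88) of 92.1 peaks, against 1.48% (1.42 to 1.55). Peaks here were also denser, and wider, with medians of 285 against 254 bp in OMM2.3 and 278.5 against 235 bp in 92.1. Random overlap rises with both, and the shares were not adjusted for either. The 22 pairs lay on 17 sequences, and in 6 both windows had 5 or more GGAAT matches. Summits lay within 100 bp of each other in 9.

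In 1 pair both peaks passed q. It lay on chr17_KI270729v1_random, at 27625-27883 in OMM2.3 with 28 A3B against 6 IgG fragments and a fold of 3.61, and at 27657-27879 in 92.1 with 18 against 4 and a fold of 4.48. Their summits were 10 bp apart, and the windows held 27 and 26 GGAAT matches. A second pair on the same sequence, at 38309-38954 and 38308-38585, had 9 and 6 A3B fragments. The other 3 of the 5 strongest pairs lay on chrUn_KI270330v1 (96 fragments in OMM2.3 and 65 in 92.1), chrUn_KI270442v1 (20 and 9) and at the start of chrUn_GL000216v2 (92 and 45).

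A minority of peaks resembled annotated transcripts. Peaks on the chromosomes were not matched, so no share stands beside these. At 95% identity or more over at least 100 bp, 64 peaks of OMM2.3 (14.7%) and 65 of 92.1 (11.6%) matched a GENCODE transcript, 62 of each at repeated sequence. The best match was a long non-coding RNA for 32 peaks in each list and a protein-coding transcript for 7 and 9. Among peaks past q, 3 of OMM2.3 matched and none of 92.1. They matched HRAT17 on chrUn_KI270757v1, the ROCK1 pseudogene ROCK1P1 on chr14_GL000225v1_random, and ENSG00000286033 on chrUn_KI270744v1. The peak at HRAT17 sequence had 13 A3B fragments on a background of 1.35, a fold of 5.22, the highest on these sequences in OMM2.3. The other 2 had 75 and 93 A3B fragments on 31 and 44 of IgG. In each of these 3 windows at least 77.6% of the 32-mers were repeated.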

How the data were processed

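ChIP-seq with an A3B antibody or normal rabbit IgG was done in OMM2.3 and 92.1, 1 library per group and 4 in all. Paired-end reads were checked by the authors (FastQC 0.11.9), aligned to GRCh38 (Bowtie2 2.2.5) and freed of duplicates (Sambamba). MACS2 2.2.7.1 then called peaks with a p-value limit of 0.05, using the IgG library of the same line as control. Filters on mapping quality and excluded regions are not given in the sources used here. Bowtie2 by default keeps a single placement for a read that matches equally well at several places, so values in repeated sequence are those of placements, and the effect of this was not tested.

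In the deposited lists, the score was 10 times the −log10 p without decimals. Fold enrichment as deposited is a ratio of A3B fragments at the summit, scaled, to the IgG background that MACS2 used, after 1 is added to each. The deposited −log10 p and −log10 q-values were those of MACS2.

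Peaks were selected by sequence name. A3B fragments and background were recovered from fold and −log10 p by the arithmetic of MACS2, within 0.002 of the deposited −log10 p, for all 56167 and 136678 peaks. Only 1 fragment number was possible for 426 of the 435 and 521 of the 560 selected peaks. For the others, a number whose background was whole IgG fragments was preferred, and after that the closest p. In 92.1 this choice gave some backgrounds down to 0.811, under the lowest of 0.877 before it. Most chromosome peaks took the closest p alone, so the 2 sides were not recovered alike. IgG fragments are given only where the background came out whole within 0.02, at 147 and 186 peaks. Densities used sequence outside N. Copies were counted as 32-mers on both strands of the reference without alternate haplotypes. GC content and motifs were read within 100 bp of the summit on both strands, and periods in 1 kb. Transcripts (GENCODE 44) and the RefSeq 45S gene were matched by BLAST 2.17.0, since no annotation of these sequences was used here.

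Named peaks were the 5 strongest of each list by p, of which the strongest of OMM2.3 is not reported here, and the 5 shared pairs in which the weaker peak was strongest. Named sequences were those with the most peaks, and genes those matched by peaks past q. Sequences with gaps between the lists, the AT-rich sequences and the ribosomal DNA were named after their values were seen, as were the minimums for GGAAT, periods and GC content. The members and lists were chosen with earlier results of these data known. The recovery and the copy counts were tested on simulated data. No test was made, as each group had 1 library. Computation used Python 3.11.15, numpy 2.4.6, scipy 1.17.1, pandas 2.3.3, numba 0.67.0 and matplotlib 3.10.9.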

Additional observations from a re-analysis of the deposited data

How the results depend on the processing

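Under 30 alternatives to 12 values, the value stayed within its 95% interval in 20. With 24-mers the repeated share was 89.7% in OMM2.3 and 93.2% in 92.1, and with 90% of the 32-mers required it was 47.6% and 49.3%. At a p of at most 1e-05 the density was 2.64 and 3.19 peaks per Mb, and 6.67% and 6.25% of peaks passed in place of the share past q. With summits within 100 bp in place of overlap, 2.07% of OMM2.3 peaks and 1.61% of 92.1 peaks were shared. Leaving out the sequence with most peaks, counting N, a tolerance of 0.01, whole peaks in place of windows, alternate haplotypes and an overlap of 50% of both peaks left the values they were run on within those intervals. No paired analysis was possible because every group holds 1 library and nothing was tested. The median peak rests on 9 and 5 A3B fragments, and depth was not varied. The few peaks with over 200 fragments have like numbers of IgG fragments, and their positions among repeated copies were not tested.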
